A study of Mus musculus with 10 samples.

Results

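Chylomicrons are the large lipoproteins that carry dietary fat out of the absorptive cells of the gut. Each particle is built on a single molecule of apolipoprotein B, which the microsomal triglyceride transfer protein loads with lipid in the endoplasmic reticulum, and apolipoproteins A-I, A-IV and C-III join its surface. In the body this assembly, like sugar digestion at the brush border and the uptake of sterols and retinol, belongs mainly to the small intestine, and the colon takes little part in it. The 10 genes described here are Apob, Mttp, Apoa1, Apoa4 and Apoc3 of the chylomicron, together with Rbp2, Cbr2, Npc1l1, Sis and Lct. They are 10 of the 18820 genes that had a probe set with a single gene symbol. Each gene stands on 1 probe set, and only Apoa4 had 2, of which the probe set with the higher mean over the 10 arrays was taken. The genes were selected on genotype and drug differences already known from these same arrays, so all differences below are a description, and an adjusted p only says where a gene stood in the fit over all 23099 tested probe sets.

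Organoids, which are epithelial cultures grown from crypt cells, came from the colon of male mice on a C57BL/6J background. The knockout (KO) mice carried Pparg, the gene of the fatty acid receptor PPARγ, with exons 1 and 2 between loxP sites and a Cre recombinase under the villin promoter, which is active in the intestinal epithelium, and the wild-type (WT) mice were their littermates. There were 3 KO arrays under rosiglitazone, a drug that activates PPARγ (1 µM for 24 h), from mice 46, 45 and 44 as replicates 1, 2 and 3, and 2 KO arrays under vehicle (0.1% DMSO for 24 h) from mice 46 and 44 as replicates 1 and 2. The WT arrays were 3 under rosiglitazone, from mice 48, 42 and 47 as replicates 1, 2 and 3, and 2 under vehicle, from mice 42 and 47 as replicates 1 and 2. Mice 45 and 48 thus gave a rosiglitazone array only, and arrays of 1 mouse are not independent of each other. All cultures were kept in a medium with Wnt, R-spondin, Noggin and epidermal growth factor. The labels used here state no age.

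Values are RMA expression on the log2 scale as deposited, so a difference of 1 is a doubling of signal. Array medians lay between 3.54 and 3.72, and values near or below these are dim signals in which a true difference can be compressed. The epithelial genes Cdh1, Epcam and Vil1 read from 9.65 to 11.05 in all arrays, and Car1, a carbonic anhydrase of the colon, from 10.77 to 11.92, whereas Gata4 and Pdx1, regulators of the proximal small intestine, read from 2.81 to 3.73. The marker Slc26a3, the chloride exchanger of mature colonocytes, was dim (2.15 to 4.57). The colon regulators Hoxa13 (2.88 to 4.17) and Hoxb13 (2.51 to 3.57) were about as dim as Gata4 and Pdx1. Isx, an intestinal homeobox gene, was bright (8.91 to 9.59). These regional markers thus did not all point the same way. Pparg itself read 7.37 to 8.78 in KO and 7.59 to 8.41 in WT arrays. Its 1 probe set was not placed against exons 1 and 2 in the sources used here, so it checks neither the deletion nor the labels, and each genotype direction below rests on the labels. In these bulk samples, more cells of a type and more RNA per cell cannot be told apart.

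The promoters of 4 of these genes are shown because their levels behaved differently: Apob was high in KO arrays, Rbp2 was mostly high in WT arrays, and Apoa1 and Sis were highest in the KO array in which Apob was lowest. Each line runs from 250 bases before to 50 bases after the RefSeq start of the gene (GRCm38.p6), 5′ to 3′ on the gene's own strand, and capitals mark matches to a motif. Apob lies at chr12:7977427-7977726 on the plus strand, Rbp2 at chr9:98490287-98490586 on the plus strand, Apoa1 at chr9:46228380-46228679 on the plus strand and Sis at chr3:72967814-72968113 on the minus strand.
Apob: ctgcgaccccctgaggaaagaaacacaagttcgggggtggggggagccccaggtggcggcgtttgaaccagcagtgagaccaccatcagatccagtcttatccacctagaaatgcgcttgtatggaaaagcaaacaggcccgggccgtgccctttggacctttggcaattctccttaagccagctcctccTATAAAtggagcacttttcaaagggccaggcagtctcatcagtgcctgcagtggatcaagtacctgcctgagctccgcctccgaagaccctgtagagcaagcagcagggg
Rbp2: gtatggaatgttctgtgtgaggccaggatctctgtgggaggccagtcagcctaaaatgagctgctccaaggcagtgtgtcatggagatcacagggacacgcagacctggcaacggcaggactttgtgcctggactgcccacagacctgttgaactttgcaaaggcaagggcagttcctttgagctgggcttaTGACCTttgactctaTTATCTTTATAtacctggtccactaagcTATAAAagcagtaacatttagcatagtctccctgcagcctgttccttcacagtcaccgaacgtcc
Apoa1: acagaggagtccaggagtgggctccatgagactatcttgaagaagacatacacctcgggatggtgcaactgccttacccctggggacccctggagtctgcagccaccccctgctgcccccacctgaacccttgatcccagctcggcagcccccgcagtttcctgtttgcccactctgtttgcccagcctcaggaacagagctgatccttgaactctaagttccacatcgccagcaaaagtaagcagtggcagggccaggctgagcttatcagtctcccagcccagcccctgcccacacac
Sis: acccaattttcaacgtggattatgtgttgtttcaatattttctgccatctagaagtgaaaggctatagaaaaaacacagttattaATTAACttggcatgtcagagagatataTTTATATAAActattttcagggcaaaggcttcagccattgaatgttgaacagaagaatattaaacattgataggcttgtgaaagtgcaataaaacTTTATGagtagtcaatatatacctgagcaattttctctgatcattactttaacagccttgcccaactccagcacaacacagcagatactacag

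In these letters 7 motifs were searched on both strands. The first was the half-site of nuclear receptors, AGGTCA, held by 16.3% of 32817 RefSeq promoters of this length. DR1, the repeat that PPARγ binds with its partner RXR, is that half-site followed by any 1 base and the half-site again, so each DR1 also counts as a half-site, and 0.0396% held it. The core bound by HNF4 was searched as CAAAGTCCA and was held by 0.475%. The half-site of HNF1 was searched as GTTAAT and was held by 7.1%. The motif of GATA factors was searched as AGATAA and was held by 11.2%. The motif of CDX factors was searched as TTTATG and was held by 11.9%. The TATA box was searched as TATAAA and was held by 13.6%. The Apob window matched the TATA box, the Rbp2 window the nuclear receptor half-site, the GATA motif and the TATA box, and the Sis window the HNF1 half-site, the CDX motif and the TATA box, while the Apoa1 window had none of the 7. In Rbp2 the GATA match overlaps a TATA box match on the same strand, and in Sis the TATA box matches on both strands overlap each other. No window among the 9 members found in the promoter table held DR1 or the HNF4 core. A match is only a run of letters, and no match says only that these letters are not in this window.

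Apob was the member that set the genotypes apart. In KO organoids it read 6.29, 4.54 and 5.67 under rosiglitazone (replicates 1, 2 and 3) and 6.72 and 5.56 under vehicle, against 3.51, 3.22 and 3.47 under rosiglitazone and 3.67 and 3.53 under vehicle in WT organoids. All 5 KO arrays thus lay above all 5 WT arrays, which held for 0.905% of tested probe sets (1.93% were without overlap in either direction), a share from which nothing is read because the gene was chosen with these differences known. Of the WT values 3.67 lay within the range of the array medians and the other 4 below it, all within less than 1 unit, whereas the KO values spread widely, with mouse 46 highest in both treatments and mouse 45 lowest. The level was 5.50 ± 0.89 in KO against 3.40 ± 0.16 in WT under rosiglitazone (SD, n = 3 each), and 6.14 ± 0.82 in KO against 3.60 ± 0.10 in WT under vehicle (SD, n = 2 each). Ordered by level the groups ran KO vehicle, KO rosiglitazone, WT vehicle and WT rosiglitazone. The KO groups overlapped and the WT groups lay side by side without overlap, and neither pair of neighbours differed beyond the error of the fit, as given with the drug differences below.

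**Figure D1:**
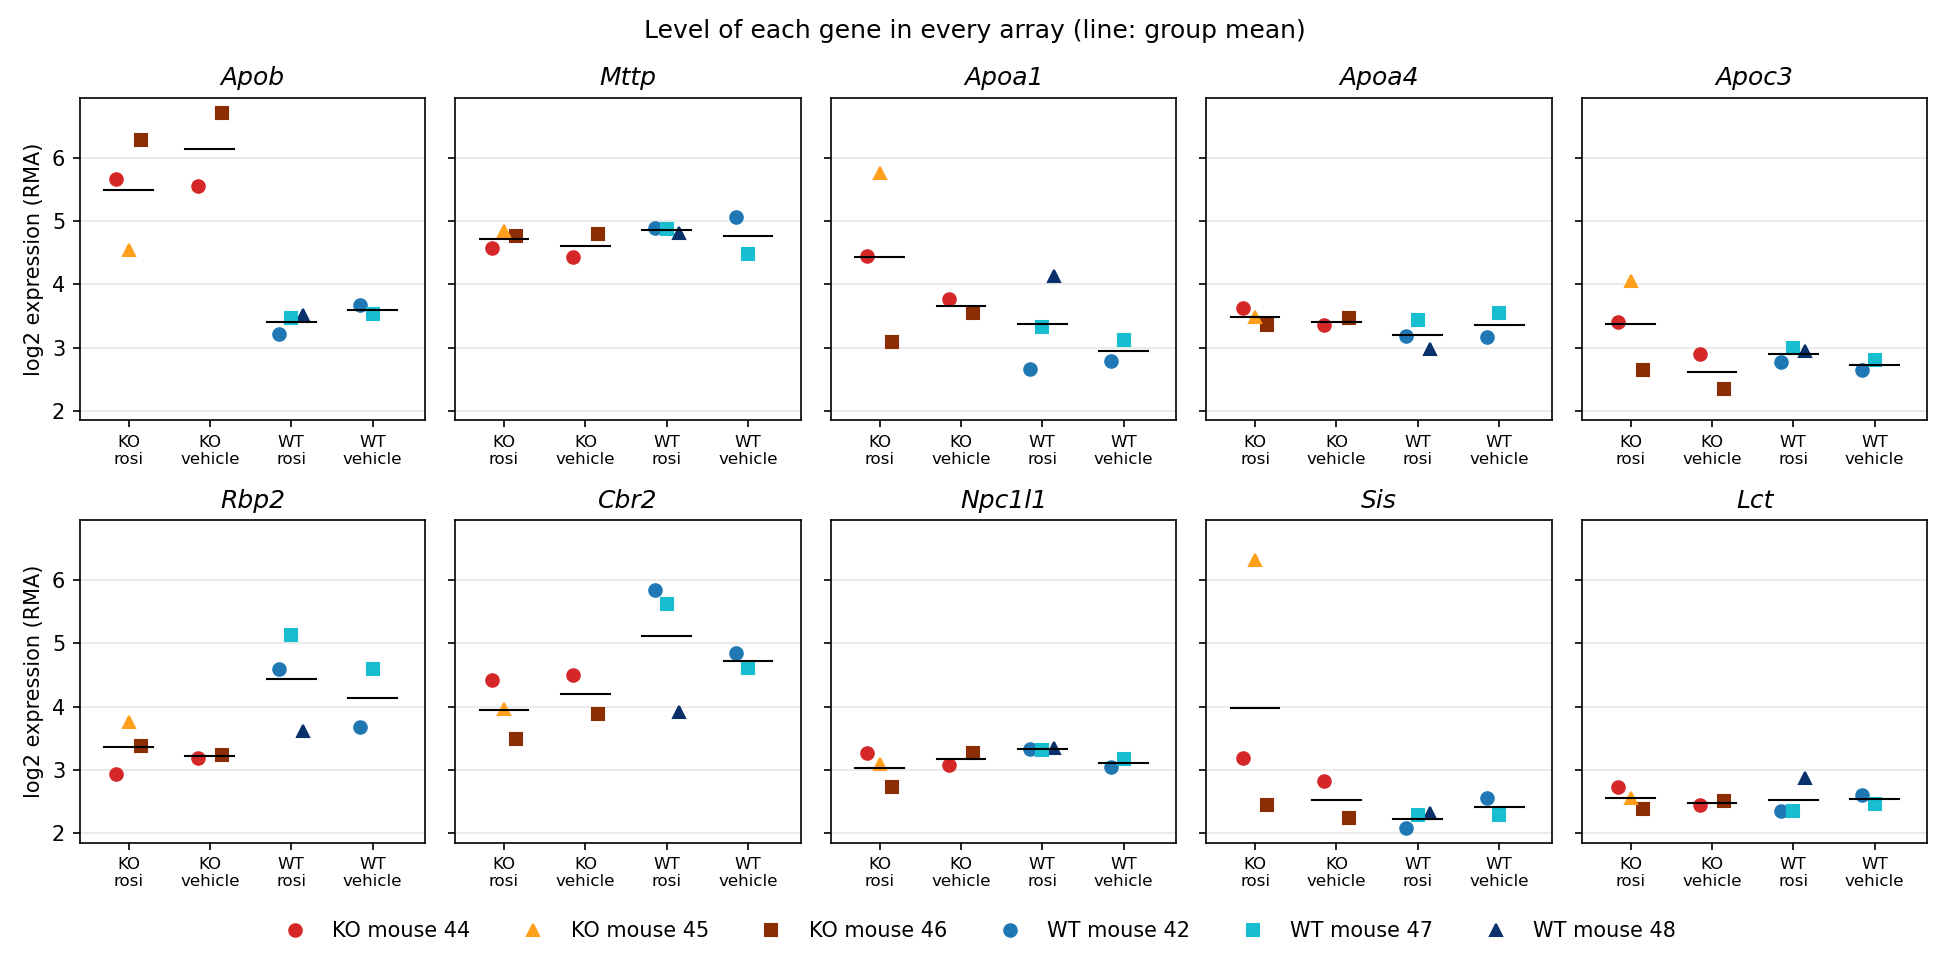
Level of each of the 10 genes in every array (log2 RMA expression, vertical axis) in the 4 groups (horizontal axis); each point is 1 array, coloured by mouse, and each line is a group mean. Apob lies at 4.54 to 6.72 in KO and 3.22 to 3.67 in WT arrays, and the KO array of mouse 45 holds the highest Sis (6.32), Apoa1 (5.77) and Apoc3 (4.05); heights are not comparable between genes.

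The KO minus WT difference of Apob was 2.10 (SE 0.40, 95% interval 1.22 to 2.98) under rosiglitazone, a 4.29-fold higher signal, and 2.54 (SE 0.49, interval 1.46 to 3.62) under vehicle, a 5.82-fold higher signal. Both folds are ratios of the deposited signals and not exact expression ratios, since the WT values were dim. Of all tested probe sets, 11 differed by at least as much under rosiglitazone and 15 under vehicle, Apob included. Even so, Apob did not pass the threshold of 0.05 in limma's fit across all probe sets: its adjusted p was 0.296 under rosiglitazone and 0.423 under vehicle. Without both arrays of mouse 46 the differences were 1.71 and 1.96. Without the KO rosiglitazone array of mouse 45 the rosiglitazone difference was 2.58, with an adjusted p of 0.0711, the smallest over its alternatives.

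No member was called between the genotypes under either treatment, while limma called 0.0216% of tested probe sets under rosiglitazone and 0% under vehicle. At an unadjusted p under 0.05 there were 4 members under rosiglitazone (Apob, Sis, Rbp2 and Cbr2) and 1 under vehicle (Apob), beside 4.81% and 5.69% of all probe sets. Of the 10 members, 6 read higher in KO under rosiglitazone (median difference 0.16, against 0.0021 over all probe sets) and 5 under vehicle (median -0.0038, against 0.031).

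**Figure D2:**
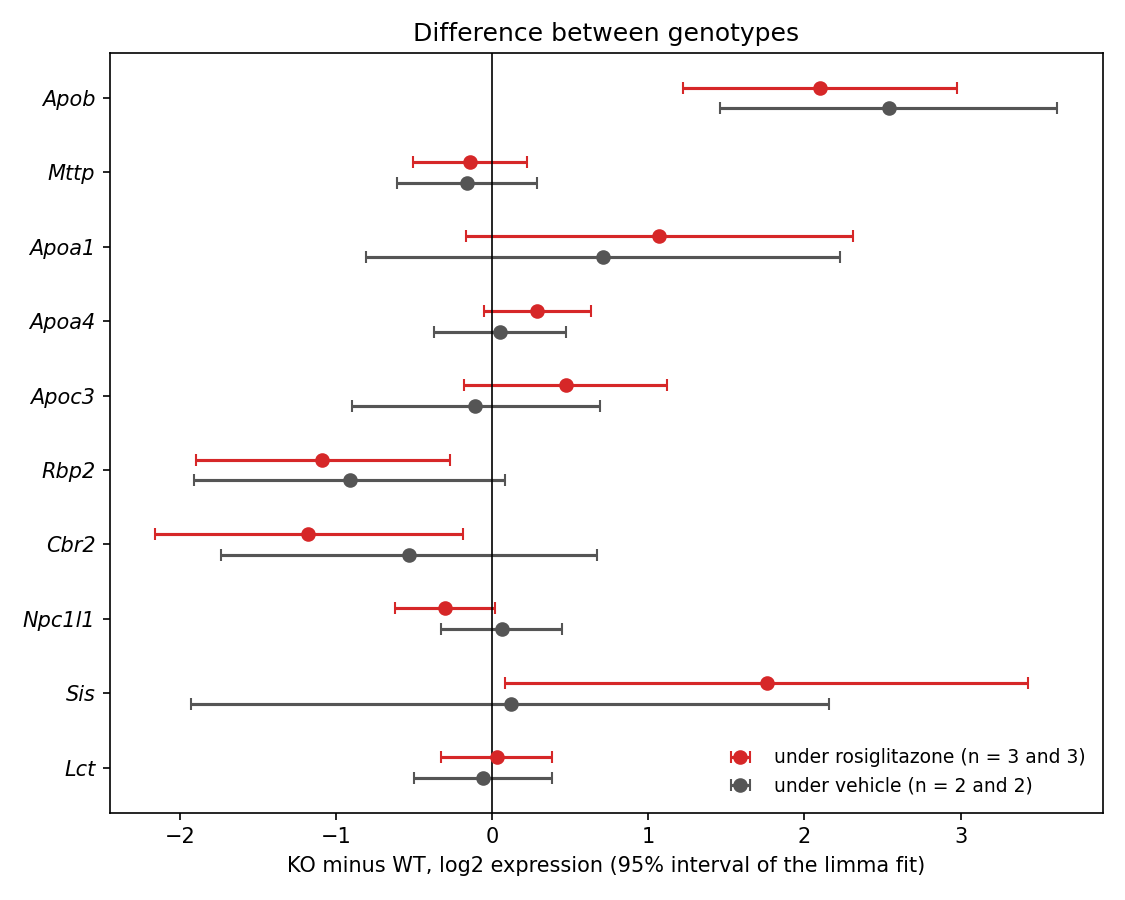
KO minus WT difference of each gene (horizontal axis, log2 expression) under rosiglitazone (red, n = 3 and 3) and vehicle (grey, n = 2 and 2), with the 95% interval of the limma fit. The Apob intervals run from 1.22 to 2.98 and from 1.46 to 3.62, while those of Mttp, Apoa4 and Lct include 0 and stay within 0.63 on either side.

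Mttp, which encodes the lipid-loading partner without which apolipoprotein B is degraded, did not follow Apob. It read 4.76, 4.84 and 4.57 in KO against 4.82, 4.90 and 4.88 in WT under rosiglitazone, and 4.80 and 4.43 in KO against 5.06 and 4.48 in WT under vehicle. The groups overlapped in each treatment, and all 10 arrays lay between 4.43 and 5.06, while Apob ran from 3.22 to 6.72. The KO minus WT difference was -0.14 (SE 0.17, interval -0.51 to 0.22) under rosiglitazone and -0.16 (SE 0.20, interval -0.61 to 0.29) under vehicle, so a difference of the size seen for Apob lay outside both intervals. P4hb, the disulfide isomerase that forms the other subunit of the transfer protein, read from 9.83 to 10.16 in all arrays.

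Apoa1 encodes the main protein of high-density lipoprotein, which the gut also places on chylomicrons. It read 3.09, 5.77 and 4.45 in KO against 4.13, 2.66 and 3.33 in WT under rosiglitazone, and 3.54 and 3.77 in KO against 2.78 and 3.12 in WT under vehicle. The groups overlapped under rosiglitazone and did not under vehicle, where 39.1% of all tested probe sets did not overlap. The highest value was that of KO mouse 45, and the difference under rosiglitazone was 1.07 (SE 0.56) with that array and 0.40 without it. It was 1.74 (SE 0.43) without the KO array of mouse 46 and 0.71 (SE 0.61) without the WT array of mouse 42. Under vehicle the difference was 0.71 (SE 0.69).

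Apoc3, an inhibitor of lipoprotein lipase, and Apoa4, a satiety-linked apolipoprotein of chylomicrons, are neighbours of Apoa1 on chromosome 9. Apoc3 read 2.65, 4.05 and 3.41 in KO against 2.94, 2.77 and 2.99 in WT under rosiglitazone, and 2.34 and 2.90 in KO against 2.64 and 2.81 in WT under vehicle. The highest value after that of mouse 45 was 3.41, and the KO values lay on both sides of the WT values in each treatment. The rosiglitazone difference of 0.47 (SE 0.29) was 0.13 without mouse 45 and 0.83 without the rosiglitazone array of mouse 46, and the vehicle difference was -0.11 (SE 0.36). Apoa4 was dim throughout, at 3.36 to 3.62 in KO and 2.97 to 3.55 in WT arrays, and its differences were 0.29 (SE 0.15) and 0.05 (SE 0.19). The second Apoa4 probe set, at a mean of 2.75, gave -0.13 under rosiglitazone, so the direction of Apoa4 differed between its probe sets.

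Whether Apob moved with its partners was read within each genotype, because the genotypes did not overlap in Apob and a correlation over all arrays would only restate that gap. Among KO arrays the Apob order by mouse was 46, 44 and 45 from high to low. Of the 8 pairs of KO arrays from different mice, 0 were ordered alike in Apob and Apoa1, and 0 in Apob and Apoc3, so both partners ran the opposite way to Apob. The same count was 4 of 8 for Mttp and 2 of 8 for Apoa4. These 8 pairs come from only 3 mice, which is too few to test a relation. Among WT arrays, where Apob hardly varied, 4 of 8 pairs were ordered alike for Apoa1, 3 for Apoc3, 3 for Mttp and 4 for Apoa4.

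**Figure D3:**
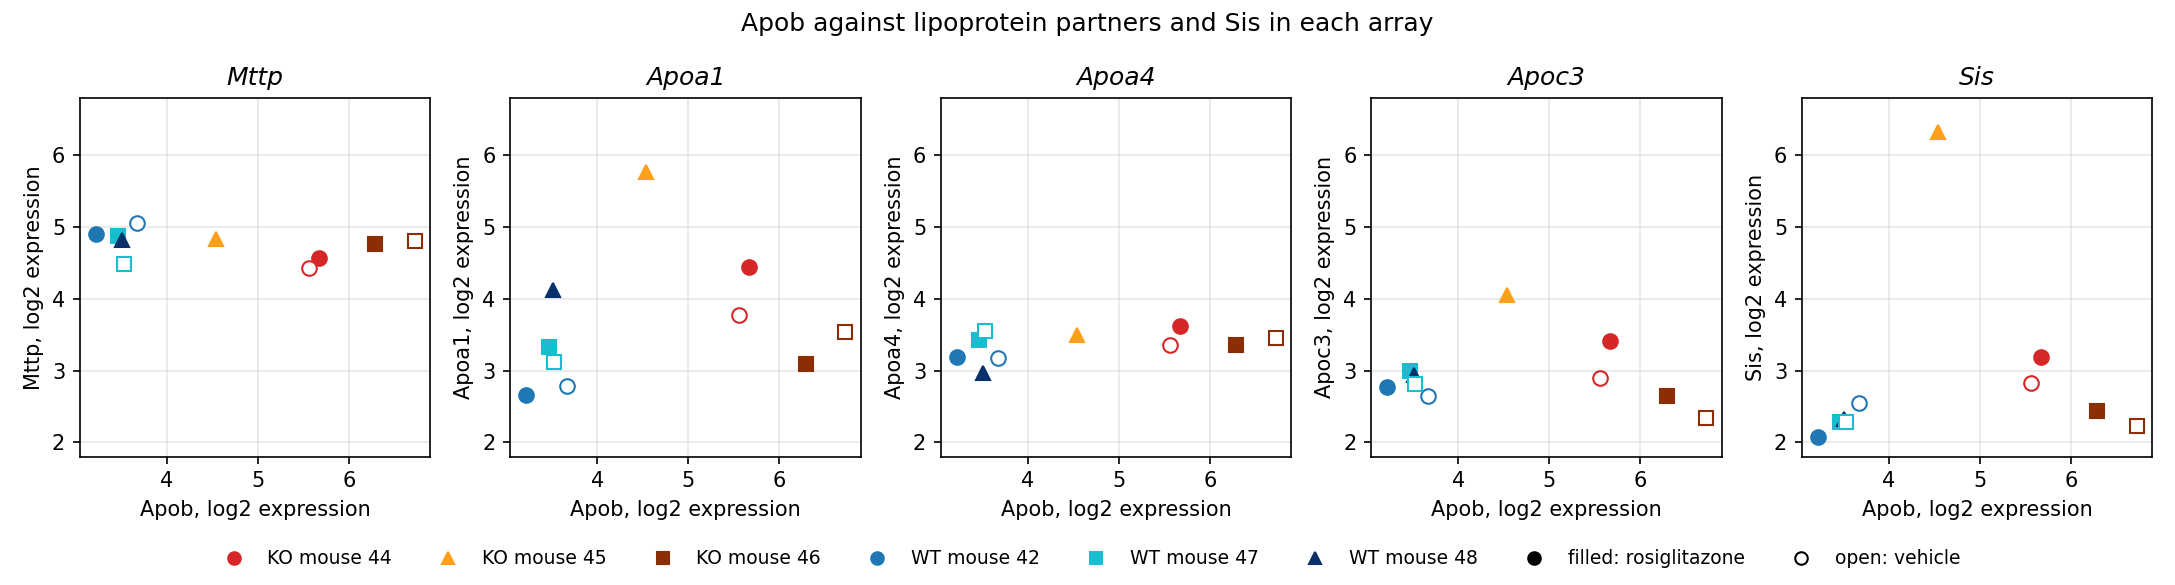
Level of Mttp, Apoa1, Apoa4, Apoc3 and Sis (vertical axes, log2 expression) against Apob (horizontal axes, log2 expression) in each of the 10 arrays, coloured by mouse, filled for rosiglitazone and open for vehicle. Among KO arrays, mouse 45 has the lowest Apob (4.54) with the highest Apoa1, Apoc3 and Sis, while Mttp stays between 4.43 and 5.06 in all arrays.

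Among KO arrays the brush border disaccharidase sucrase-isomaltase (Sis) ran the same way as Apoa1 and Apoc3. It read 2.44, 6.32 and 3.19 in KO against 2.32, 2.08 and 2.28 in WT under rosiglitazone, and 2.23 and 2.82 in KO against 2.55 and 2.28 in WT under vehicle. The single bright array was that of KO mouse 45. The rosiglitazone groups did not overlap, as was so for 8.69% of tested probe sets, and the difference of 1.76 (SE 0.75, adjusted p = 0.999) was 0.59 without that array and 2.53 without the KO array of mouse 46. Under vehicle it was 0.12 (SE 0.92). Of the 8 KO pairs of arrays 0 were ordered alike in Apob and Sis, and of the 8 WT pairs 7 were. The same array held the highest log2 of the summed signal of 14 secretory cell markers, such as the mucin Muc2, at 11.59. Over the groups that sum ran from 7.33 to 11.59 in KO rosiglitazone, from 7.41 to 8.97 in KO vehicle, from 7.63 to 8.65 in WT rosiglitazone and from 8.52 to 9.13 in WT vehicle arrays. Of these 14 markers 13 read higher in KO under rosiglitazone and 5 under vehicle, with 0 called. The goblet cell genes Spink4, Clca1 and Agr2 differed by 1.96 (SE 1.02), 1.58 (SE 1.29) and 1.34 (SE 1.07) under rosiglitazone and by 0.02 (SE 1.25), -1.29 (SE 1.58) and -1.47 (SE 1.31) under vehicle. Without the KO array of mouse 45 their rosiglitazone differences were 0.63, 0.44 and 0.13. The part of these markers in the values of Sis, Apoa1 and Apoc3 was not tested. Lactase (Lct), the enzyme that splits milk sugar, stayed between 2.38 and 2.73 in KO and between 2.35 and 2.87 in WT arrays, and its differences were 0.03 (SE 0.16) and -0.06 (SE 0.20).

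Rbp2 and Cbr2 ran the other way between the genotypes. Rbp2 encodes the retinol-binding protein of absorptive cells, which hands retinol to the enzyme that esterifies it for chylomicrons. It read 3.37, 3.76 and 2.93 in KO against 3.61, 4.59 and 5.13 in WT under rosiglitazone, and 3.24 and 3.19 in KO against 3.67 and 4.59 in WT under vehicle. The KO values were dim, and the groups overlapped only under rosiglitazone, where KO mouse 45 lay above WT mouse 48. Under vehicle 39.1% of all tested probe sets did not overlap. The KO minus WT difference was -1.09 (SE 0.37, interval -1.90 to -0.27, adjusted p = 0.94) under rosiglitazone and -0.91 (SE 0.45, adjusted p = 0.855) under vehicle. On the 4 mice with both treatments the first was -1.70. The second was -0.45 without WT vehicle replicate 2 and -1.37 without WT vehicle replicate 1.

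Cbr2, a carbonyl reductase, read 3.48, 3.96 and 4.42 in KO against 3.91, 5.84 and 5.63 in WT under rosiglitazone. Under vehicle it read 3.89 and 4.50 in KO against 4.85 and 4.61 in WT. WT mouse 48 fell among the KO arrays, so the groups overlapped under rosiglitazone. The vehicle groups did not overlap, as was so for 39.1% of tested probe sets. With mouse 48 set aside, the other WT arrays lay above all KO arrays. The share of probe sets with such a split was not counted, so nothing is read from it. The differences were -1.18 (SE 0.44, interval -2.16 to -0.19, adjusted p = 0.999) under rosiglitazone and -0.53 (SE 0.54, adjusted p = 0.888) under vehicle. Without mouse 48 the rosiglitazone difference was -1.78, with an adjusted p of 0.0739, the smallest over its alternatives.

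Npc1l1, the apical cholesterol carrier that the drug ezetimibe blocks, was dim in every array. It read 2.73, 3.09 and 3.27 in KO against 3.35, 3.33 and 3.31 in WT under rosiglitazone, and 3.26 and 3.08 in KO against 3.05 and 3.17 in WT under vehicle. The rosiglitazone groups did not overlap, as was so for 8.69% of tested probe sets, but nearly met, at 3.27 in KO and 3.31 in WT. The difference of -0.30 (SE 0.14, adjusted p = 0.999) stood beside 0.06 (SE 0.18) under vehicle. Without the KO rosiglitazone array of mouse 46 the first was -0.15 (SE 0.13).

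Rosiglitazone against vehicle called 0 members in either genotype, and 0% of all probe sets in limma, with 3.06% of probe sets in KO and 0.991% in WT at an unadjusted p under 0.05. Among the members 1 (Apoc3) reached that unadjusted p in KO and 0 did in WT. For Apob the difference was -0.64 (SE 0.44, interval -1.62 to 0.34) in KO, and -0.20 (SE 0.44, interval -1.18 to 0.78) in WT. Mouse 45, with the lowest KO value and no vehicle array, enters the KO difference, which was -0.16 (SE 0.17) with the mouse as a fixed block and -0.16 (SE 0.34) without that array. Leaving out the other KO arrays in turn gave -1.22 without vehicle replicate 2, -1.04 without rosiglitazone replicate 1, -0.73 without rosiglitazone replicate 3 and -0.06 without vehicle replicate 1. Within mice, where the drug and vehicle arrays share a donor, Apob differed by 0.11 and -0.43 in KO mice 44 and 46 and by -0.46 and -0.05 in WT mice 42 and 47. Each of these was smaller than the gap between the genotypes.

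For the other members the drug differences within mice were mostly below 1 unit. Apoc3 was higher under rosiglitazone in all 4 mice, by 0.52 and 0.30 in KO mice 44 and 46 and by 0.13 and 0.18 in WT mice 42 and 47. Rbp2 differed by -0.25 and 0.13 in the KO mice and by 0.92 and 0.54 in the WT mice. With the mouse as a fixed block the Rbp2 difference was -0.06 (SE 0.15) in KO and 0.73 (SE 0.15) in WT, with adjusted p-values of 0.952 and 0.872. Cbr2 differed by -0.08 and -0.41 in the KO mice and by 0.99 and 1.02 in the WT mice. With the same block its difference was -0.25 (SE 0.13, adjusted p = 0.726) in KO and 1.01 (SE 0.13, adjusted p = 0.267) in WT, against -0.24 (SE 0.50) and 0.40 (SE 0.50) without a block. The WT rosiglitazone array of mouse 48, which has no vehicle partner and enters only the value without a block, read 3.91, below both WT vehicle arrays. The difference between the drug responses, KO minus WT, was -1.25 (SE 0.18, adjusted p = 0.587) for Cbr2 with the block and -0.64 (SE 0.70) without it, and 0 members passed in that comparison, in which 0% of probe sets were called and 2.32% had an unadjusted p under 0.05.

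**Figure D4:**
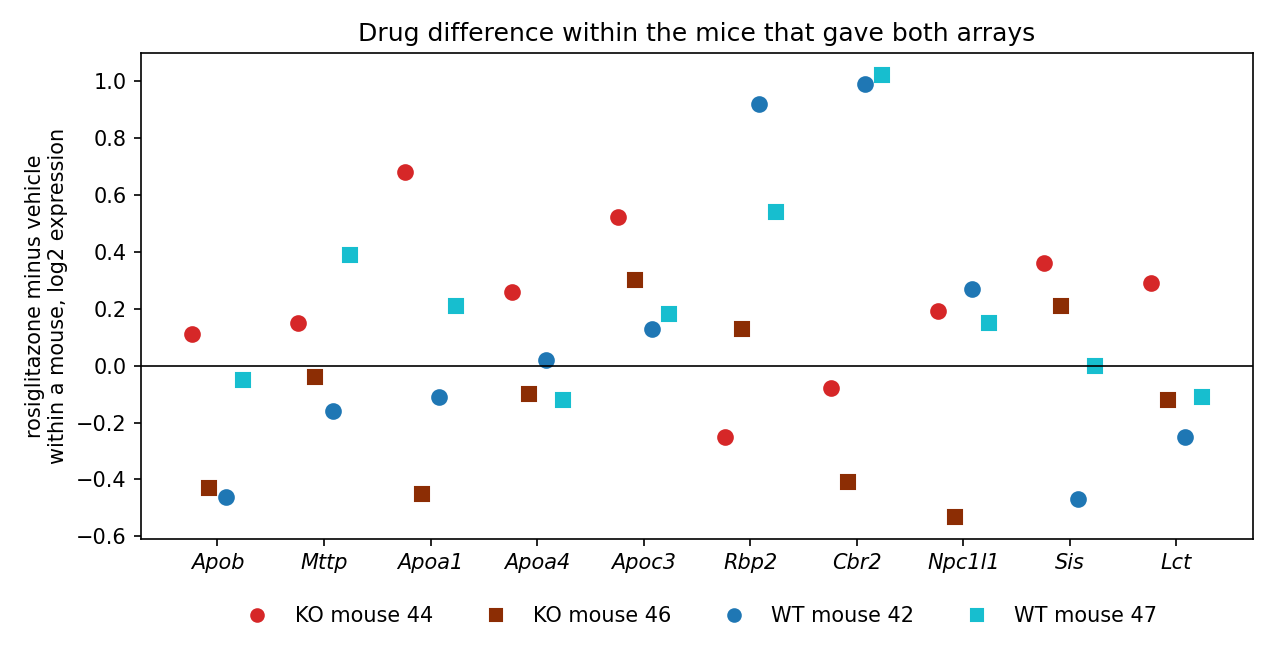
Rosiglitazone minus vehicle within each of the 4 mice that gave both arrays (vertical axis, log2 expression) for each gene (horizontal axis); points are single mice, KO 44 and 46 and WT 42 and 47. Cbr2 lies at -0.08 and -0.41 in KO and 0.99 and 1.02 in WT mice, and Apob between -0.46 and 0.11.

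The genes around these members in their pathways were taken from lists written from textbook knowledge, and 0 list genes passed in any of the lists below. Several lists also hold the members described above, which enter their counts, and the genes named here are those outside the members. Of 34 measured genes of chylomicron assembly, 19 read higher in KO under rosiglitazone (median 0.03) and 21 under vehicle (median 0.05), and 21 of the 34 had a mean above the median of tested probe sets. Among the bright genes of this list that are no members, the widest genotype differences under rosiglitazone were those of Prap1, which encodes a small secreted protein (1.08, SE 0.60), Dgat2, which makes triglyceride (-0.99, SE 0.40), and Plin2, a coat protein of lipid droplets (-0.90, SE 0.21, adjusted p = 0.526). Plin2 read 7.48 to 7.71 in KO and 7.97 to 8.84 in WT under rosiglitazone, and 7.46 to 7.61 in KO and 8.00 to 8.14 in WT under vehicle. Prap1 thus lay on the same side as Apob and the other 2 on the opposite side. Leaving out the KO array of mouse 45 gave rosiglitazone differences of 1.65 for Prap1, -0.95 for Dgat2 and -0.83 for Plin2. Apobec1, the enzyme that edits Apob messenger RNA to its short intestinal form, was dim, at 3.02 to 4.10.

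Of 18 brush border hydrolases and structural genes 14 read higher in KO under each treatment (medians 0.09 and 0.19). Mep1a, a metalloprotease of the brush border, differed by 0.94 (SE 0.52) under rosiglitazone and 0.61 (SE 0.63) under vehicle. Ace differed by 0.56 (SE 0.35) and 0.83 (SE 0.43). Alpi, the alkaline phosphatase of the brush border, lay on the other side, at -0.18 (SE 0.24) and -0.40 (SE 0.29), and Mgam, the glucosidase related to Sis, read 9.80 to 10.18 in all arrays. With the KO array of mouse 45 left out, Mep1a differed by 1.37, Ace by 0.93 and Alpi by -0.04 under rosiglitazone. The log2 summed signal of the list was 12.66, 12.03 and 12.24 in KO mice 46, 45 and 44 under rosiglitazone. Under vehicle it was 12.55 and 12.20 in KO mice 46 and 44. WT arrays lay between 12.09 and 12.28. Mouse 45 thus had the lowest KO sum and the lowest KO Apob, but the highest Sis. Of 23 transport genes of the small intestine 19 read higher in KO under rosiglitazone and 15 under vehicle (medians 0.22 and 0.16). Slc40a1, the iron exporter, differed by 0.67 (SE 0.20) and 0.66 (SE 0.24), and Slc15a1, the peptide carrier, by 0.79 (SE 0.40) and 0.77 (SE 0.49). Slc51b, a subunit of the basolateral bile salt exporter, differed by 0.53 (SE 0.53) under rosiglitazone and -0.23 (SE 0.65) under vehicle. The rosiglitazone differences without mouse 45 were 0.85 for Slc40a1, 1.16 for Slc15a1 and 1.08 for Slc51b. Over all probe sets 50.5% and 55.6% were positive in these comparisons.

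Of 24 retinoid genes 13 read higher in KO under rosiglitazone and 9 under vehicle (medians 0.01 and -0.05). Retsat, which saturates retinol, lay on the side of Rbp2 (-0.67, SE 0.22, and -0.66, SE 0.27). Aldh1a1, which makes retinoic acid, differed by -0.77 (SE 0.40) and -0.06 (SE 0.49). Cyp26b1, which breaks it down, differed by -0.94 (SE 0.55) and 0.14 (SE 0.67), so its direction was not the same under both treatments. Of 13 carbonyl and related reductases 5 read higher under each treatment (medians -0.07 and -0.09), with Dcxr at -0.43 (SE 0.16) and -0.35 (SE 0.20), Cbr1 at -0.35 (SE 0.16) and -0.18 (SE 0.20) and Akr1c12 at 0.11 (SE 0.13) and -0.02 (SE 0.16). Of 12 sterol genes 5 and 7 read higher (medians -0.01 and 0.04), with Scarb1, a lipoprotein receptor, at -0.21 (SE 0.17) and 0.02 (SE 0.21). Lipa, the lysosomal acid lipase, differed by -0.31 (SE 0.25) and 0.22 (SE 0.31), and Npc2, a lysosomal cholesterol carrier, by 0.13 (SE 0.15) and 0.20 (SE 0.19).

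Of 23 genes listed as regulators of the small intestine 7 and 10 read higher in KO (medians -0.11 and -0.12), so most read lower. Hnf4g, a nuclear receptor of the absorptive programme, differed by 0.58 (SE 0.20) and 0.13 (SE 0.24). The transcription factors Klf4 and Foxa2 lay on the other side, Klf4 at -0.57 (SE 0.17, adjusted p = 0.88) and -0.21 (SE 0.21) and Foxa2 at -0.47 (SE 0.22) and -0.44 (SE 0.27), while Hnf4a, the relative of Hnf4g, read 9.94 to 10.36 in all arrays. Of 22 colon genes 7 and 5 read higher in KO (medians -0.08 and -0.21). Cyp2c55, a cytochrome P450 of the colon, differed by -2.62 (SE 0.45, adjusted p = 0.197) and -2.31 (SE 0.55), Mettl7b, a methyltransferase, by -1.77 (SE 0.59) and -1.46 (SE 0.72), and Car1 by -0.57 (SE 0.20) and -0.87 (SE 0.25).

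Hepatocytes also make apolipoproteins B and A-I. Of 16 hepatocyte genes, a list that includes Apob and Apoa1, 9 read higher in KO under rosiglitazone and 13 under vehicle (medians 0.02 and 0.16). The log2 of their summed signal ran from 10.20 to 10.48 in KO rosiglitazone, 10.34 to 10.56 in KO vehicle, 10.11 to 10.31 in WT rosiglitazone and 10.13 to 10.24 in WT vehicle arrays. Most of this sum was Hnf4a, which alone read 9.94 to 10.36 and is also bright in gut epithelium, and Apob itself enters it. The sum is therefore no measure of hepatocytes. The defining genes Alb, Ahsg, Ttr and Fgb read 1.92 to 2.88 in all 10 arrays, below every array median. Tat, a tyrosine aminotransferase and with Hnf4a the bright gene of the list beside Apob, lay opposite to Apob, at -0.80 (SE 0.94) and -1.57 (SE 1.15). Of 14 markers of stroma, vessels and immune cells 9 read higher under each treatment (medians 0.08 and 0.07). Cd68, the only gene of that list above the median of tested probe sets, differed by -0.90 (SE 0.21) and -0.83 (SE 0.26). The log2 of their summed signal was 7.75 to 8.29 in KO rosiglitazone, 8.06 to 8.28 in KO vehicle, 8.39 to 8.75 in WT rosiglitazone and 8.71 to 8.79 in WT vehicle arrays. Most of this sum was Cd68, which read 6.96 to 7.75 in KO and 7.90 to 8.42 in WT under rosiglitazone. Under vehicle it read 7.38 to 7.79 in KO and 8.38 to 8.45 in WT. The sum thus follows 1 gene, while 9 of the 14 markers read higher in KO. The markers other than Cd68 had no mean above that median. Among them Ptprc read 2.39 to 2.79, Pecam1 2.01 to 2.46 and Col1a1 3.76 to 4.56 in all arrays. Their count of directions therefore rests mostly on dim signals. The part of the summed signal in the Apob values was not tested. Of 9 stem and cycling genes 6 and 4 read higher (medians 0.02 and -0.04), with Mki67, a marker of cycling cells, at 0.11 (SE 0.15) and -0.05 (SE 0.18). Ascl2, a transcription factor of stem cells, differed by -0.67 (SE 0.59) and -0.64 (SE 0.72), and Pcna, the replication clamp, by -0.17 (SE 0.14) and 0.11 (SE 0.17).

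The 5 genes with the highest correlation with Apob over the 10 arrays, among 9452 genes with a mean above 4.51, were Tinag (Pearson r = 0.98), Plekhj1 (0.97), Mcu (0.96), Glul (0.96) and Maf (0.95). These r values are descriptions across arrays that share mice, and the gap between the genotypes enters each of them. Tinag read 7.30 to 8.15 in KO and 6.50 to 7.04 in WT arrays. Glul, which encodes glutamine synthetase, read 7.76 to 8.24 in KO and 7.54 to 7.70 in WT arrays. The KO and WT ranges of Maf, a transcription factor, overlapped at 5.61 to 7.06 and 4.84 to 5.88. Apoa1, Apoa4 and Apoc3 lay below that mean and were not among the genes compared.

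The measured genes next to Apob on chromosome 12 were read because a shared position could be followed in these files, a choice made after the Apob values were known. Of the 5 nearest on each side 0 were called. The immediate neighbour Ldah, a hydrolase of lipid droplets, differed by 0.17 (SE 0.12) under rosiglitazone and -0.09 (SE 0.15) under vehicle. The other 9 differed by -0.23 to 0.17 under rosiglitazone and by -0.23 to 0.36 under vehicle, so none approached the difference of Apob. The dim 2810032G03Rik (mean 2.20), on the other side of Apob, did not overlap between the genotypes, at 0.15 (SE 0.11) and 0.36 (SE 0.13). That held for 1.93% of all tested probe sets.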

How the data were processed

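Per the submitters' processing notes, the authors processed the arrays with RMA. The deposited values are log2 expression for 35556 probe sets on 10 arrays, labelled from total RNA with an Affymetrix whole-transcript assay per the labels' protocols. For RMA, the version and chip definition are not given in the sources used here. The 23099 probe sets in the platform annotation were tested, and 12457 without an entry were left out. Of those tested, 1881 carried several symbols and none of these was named.

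A mean for each of 4 groups was fitted over all 10 arrays with limma 3.58.1 in R 4.3.3 (lmFit, eBayes), with 6 residual and 4.39 prior degrees of freedom. Tests were two-sided and Benjamini-Hochberg adjusted over 23099 probe sets, with a threshold of 0.05, in 5 comparisons. The script was tested on simulated data. Intervals are 95% intervals of the fit. Arrays give no count depth, so their number limits the precision.

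The labels give each array its mouse, so the mouse pairs the treatments: over all tested probe sets, how KO mouse 44 differed from KO mouse 46 under rosiglitazone followed how they differed under vehicle (r = 0.487), and likewise WT mice 42 and 47 (r = 0.44). Blocked fits were alternatives, beside scaling, filters and left-out arrays. Promoters are from RefSeq (GRCm38.p6) and matched 9 of the 10 members by symbol. The 12 gene lists had 243 entries, and 222 of them were measured. Members and lists were chosen with earlier results of these data known. Genes named beside the members are up to 3 non-members of each list with the widest genotype difference under rosiglitazone among those with a mean above the median, those that define a marker check, and the 5 most like Apob. Others were chosen after their values were seen: P4hb, Apobec1, Mgam, Hoxa13, Hoxb13, Isx and the neighbours of Apob.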

Additional observations from a re-analysis of the deposited data

Results flagged for a closer look

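Within the 4 mice with both treatments, the Cbr2 difference had opposite signs in the 2 genotypes. Rosiglitazone minus vehicle was -0.08 in KO mouse 44 and -0.41 in KO mouse 46, against 0.99 in WT mouse 42 and 1.02 in WT mouse 47. With the mouse as a fixed block the KO difference was -0.25 (SE 0.13, adjusted p = 0.726), so a fall in KO was not shown. WT mouse 48, without a vehicle array, read 3.91 under rosiglitazone, below both WT vehicle arrays. In the fit without a block the difference between the KO and WT responses had an adjusted p of 1, and 0.587 with the mouse as a fixed block, so it did not pass. For Sis the values were 0.36 and 0.21 in KO mice 44 and 46, against -0.47 and 0.00 in WT mice 42 and 47, and for Rbp2 and Apoc3 the KO and WT mice did not overlap either, though not with opposite signs throughout. None of these differences between genotypes passed. The share of all probe sets with such a separation of responses was not counted, so nothing is read from it. For levels under vehicle, also 2 KO against 2 WT arrays, 39.1% of tested probe sets did not overlap. The groups of 2 or 3 arrays are too small for the check of single arrays far from the others.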

How the results depend on the processing

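No member was called in any of the 5 comparisons under any alternative run. Apob kept its direction between the genotypes under all 19 alternatives in each treatment, from 1.71 to 2.63 under rosiglitazone (adjusted p from 0.0711 to 0.969) and from 1.96 to 3.12 under vehicle (0.134 to 1). Rbp2 ran from -1.70 to -0.74 and from -1.37 to -0.45, and Cbr2 from -1.79 to -0.82 and from -0.84 to -0.23, in the same order of treatments. The 5 probe sets called between KO and WT under rosiglitazone became 1 with repeated quantile normalization, all probe sets of the table, the groups compared alone, or without mouse 46, 16 on the 4 mice with both treatments and 8 with an intensity trend, and leaving out each array gave 1 to 23, the last without WT rosiglitazone replicate 1. The 0 called under vehicle became 1 with the mouse as a random replicate block, centring, repeated quantile normalization or bright probe sets only, 4 with the groups compared alone, 6 on the 4 mice with both treatments, 2 with the trend, and 0 to 6 without single arrays. For the drug in KO the random block gave 1 probe set against 0. The random block (consensus correlation 0.438) changed no member's call. With it Apob differed by 2.10 under rosiglitazone and 2.31 under vehicle. The causes of these shifts were not tested. With 2 or 3 arrays in a group, differences in dim genes such as Lct, Npc1l1 and Apoa4 may lie below what these arrays can show.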
